A study of Populus qamdoensis and Populus schneideri with 18 samples.

Results

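RGL1 (Pyun10G013610), scarecrow-like protein 27 (SCL27, Pyun03G010210) and NLP9 (Pyun07G013890) are 3 of the 39194 genes with expression values in leaf libraries from *P. qamdoensis* and *P. schneideri*. They were taken from the study's table of pathway genes, which placed them at the DELLA step of the gibberellin pathway, and all 3 identifiers were found in the expression values. The names are database matches to genes of *P. trichocarpa*, and neither the sequences nor the genome positions of the genes were analysed here. Plants of both poplars were grown under a blue film (BF), a green film (GF) or a colorless film (WF), which is the control. Each of the 6 combinations of species and film gave 3 leaf libraries, 18 in all. For *P. qamdoensis* the methods describe cuttings propagated from trees of 1 natural forest, with leaves taken from 3 plants per film. For *P. schneideri* the labels give only the light quality (blue, green or white), and neither the duration nor the source of the plants is given in the sources used here. The sources do not say whether the plants of a film stood under separate covers, so p-values measure the spread between these libraries only.

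Gibberellin promotes stem and leaf growth by removing DELLA proteins. The hormone binds the receptor GID1, the complex captures a DELLA protein, and the DELLA protein is then degraded. DELLA proteins restrain growth by binding transcription factors such as PIF3 and PIF4, and in Arabidopsis blue light acting through CRY1 stabilizes them. RGL1 is named as a DELLA protein, a GRAS-family repressor. SCL27 is a GRAS protein of another branch, and in Arabidopsis it limits the expression of protochlorophyllide reductase, an enzyme of chlorophyll synthesis, and can bind DELLA proteins. NLP9 is not a GRAS protein. Its family carries an RWP-RK domain and, in Arabidopsis, mediates transcriptional responses to nitrate.

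The study chose these genes among those it called different between films in *P. qamdoensis*. Film differences in *P. qamdoensis* are therefore described without a test. Tests are given for *P. schneideri*, which the study's choice did not use, and for the mean difference between the species. The genes were taken up here with earlier results of these data known, so these tests are not wholly free of selection. Values are FPKM, which divides the fragments of a gene by its length and by the library's mapped total. Differences are of log2(FPKM + 1), first film minus second. For a low gene such as RGL1, adding 1 understates the ratio of FPKM. limma called a gene where its change reached 1.5-fold and its p, adjusted after Benjamini and Hochberg, was below 0.01.

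The FPKM of a library summed to between 541800 and 605700, with 27858 to 29413 genes above 0, and how many fragments stand behind a value is unknown. BF replicate 1 of *P. qamdoensis* stood apart, with a median Pearson's r of 0.861 with the other libraries of its species, against 0.940 to 0.979 for the others. In *P. schneideri* these medians ran from 0.964 to 0.978. The labelled tissue was checked with 3 antenna protein genes and a protochlorophyllide reductase gene. All 4 were present in every library, at 11.7 to 547 FPKM in *P. qamdoensis* and 8.24 to 482 FPKM in *P. schneideri*. No marker of another tissue is annotated in the sources used here, so the presence of these 4 cannot exclude other tissue.

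RGL1 was low in both species, and its films were ordered GF over WF over BF in *P. qamdoensis*. There it had 0, 0.317 and 0.234 FPKM in BF replicates 1, 2 and 3, 1.63, 0.910 and 1.43 FPKM in GF, and 0.740, 0.505 and 0.848 FPKM in WF. The libraries of the 3 films did not overlap, and RGL1 was listed at 0 only in BF replicate 1, the library that stood apart. Mean FPKM was 0.184 under BF, 1.32 under GF and 0.698 under WF. The differences were −0.53 in BF vs WF, 0.45 in GF vs WF and −0.97 in BF vs GF. Without BF replicate 1 they were −0.41, 0.45 and −0.85, so the order held without the library at 0.

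In *P. schneideri* RGL1 had 0.467, 0.555 and 0.636 FPKM in BF, 0.364, 0.465 and 1.39 FPKM in GF, and 0.369, 0.495 and 0.496 FPKM in WF. The films overlapped in all comparisons, and the highest library, GF replicate 3, stood above all others of the species. The lowest library of the species was also a GF library, replicate 1. In BF vs WF the difference was 0.096 (95% CI −0.36 to 0.56, adjusted p = 0.86 in limma), and for GF vs WF it was 0.21 (95% CI −0.25 to 0.67, adjusted p = 0.72). Without GF replicate 3 the mean of RGL1 fell below the filter of 0.5 FPKM and it was not tested. Across the libraries of either species RGL1 exceeded less than 50% of the genes, with a highest share of 49.2% in *P. qamdoensis* and 47.8% in *P. schneideri*.

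**Figure D1:**
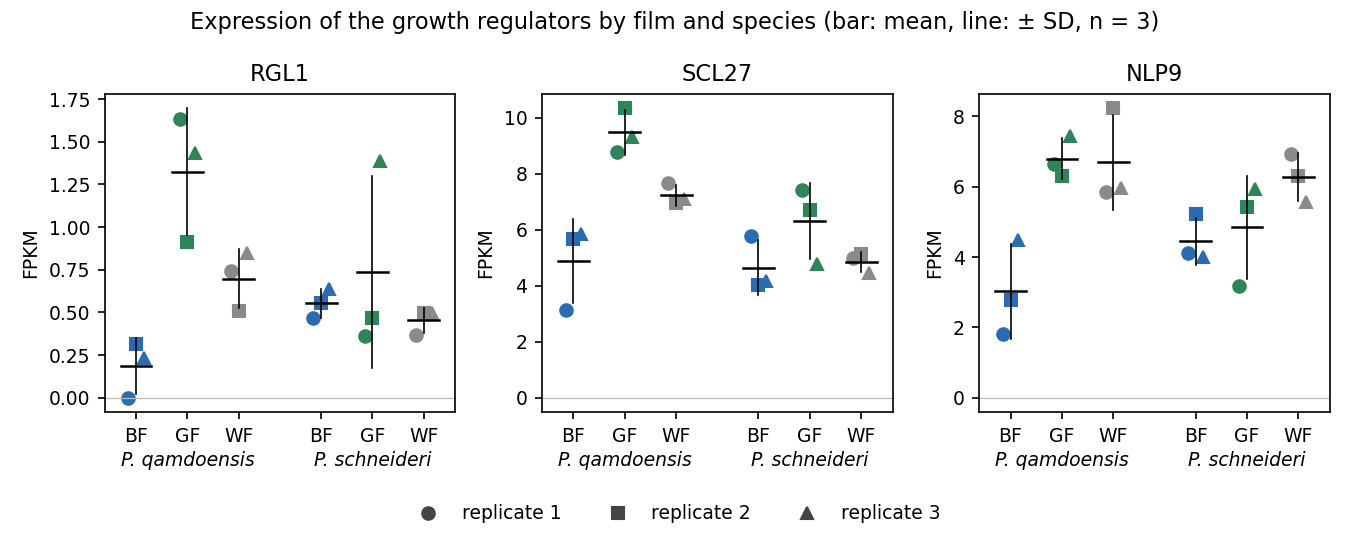
FPKM of RGL1, SCL27 and NLP9 in each of the 18 leaf libraries, by film (BF, GF, WF) and species. Points are libraries with the replicate number as the marker shape, horizontal bars are means and vertical lines ± SD (n = 3). In *P. qamdoensis* the 3 BF libraries lie below all GF and WF libraries for each gene, while in *P. schneideri* most films overlap.

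SCL27 was the most abundant of the 3 genes in *P. qamdoensis* under each film by mean FPKM, and it had the same film order there as RGL1. It had 3.14, 5.66 and 5.84 FPKM in BF, 8.79, 10.3 and 9.30 FPKM in GF, and 7.66, 6.94 and 7.09 FPKM in WF. The means were 4.88 ± 1.51, 9.48 ± 0.793 and 7.23 ± 0.382 FPKM (SD, n = 3 each), in that order, and no libraries of different films overlapped. The differences were −0.52 in BF vs WF, 0.35 in GF vs WF and −0.87 in BF vs GF. Leaving out BF replicate 1 moved the first to −0.28 and the last to −0.63. The difference between BF and WF thus depended on that library for much of its size, although BF replicates 2 and 3 also lay below all WF libraries.

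In *P. schneideri* SCL27 had 5.77, 4.02 and 4.16 FPKM in BF, 7.41, 6.71 and 4.78 FPKM in GF, and 4.98, 5.13 and 4.46 FPKM in WF. GF replicates 1 and 2 were the highest libraries of the species, and GF replicate 3 lay within the range of WF. The difference was −0.064 in BF vs WF (95% CI −0.45 to 0.32, adjusted p = 0.89 in limma), 0.30 in GF vs WF (95% CI −0.082 to 0.69, adjusted p = 0.52) and −0.37 in BF vs GF (95% CI −0.75 to 0.018, adjusted p = 0.80). GF thus had the highest mean in both species, but in *P. schneideri* its libraries overlapped those of both other films. Without GF replicate 1 the difference in GF vs WF was 0.19, and without GF replicate 3 it was 0.46.

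NLP9 was low under BF in *P. qamdoensis*, while its GF and WF libraries overlapped. It had 1.81, 2.78 and 4.48 FPKM in BF, 6.65, 6.32 and 7.43 FPKM in GF, and 5.86, 8.24 and 5.97 FPKM in WF. All BF libraries lay below all libraries of the other films, whose ranges overlapped. The means were 3.02 ± 1.35 FPKM in BF, 6.80 ± 0.573 in GF and 6.69 ± 1.34 in WF (SD, n = 3 each). The differences were −0.97 in BF vs WF, 0.032 in GF vs WF and −1.01 in BF vs GF. Without BF replicate 1 the first was −0.74 and the last −0.78.

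NLP9 was also the only one of the 3 genes whose BF and WF libraries did not overlap in *P. schneideri*. It had 4.11, 5.22 and 4.01 FPKM in BF, 3.18, 5.44 and 5.93 FPKM in GF, and 6.93, 6.32 and 5.57 FPKM in WF. Every BF library was below every WF library, and GF reached from below all BF libraries to within the range of WF. The difference in BF vs WF was −0.42 (standard error 0.194, 95% CI −0.85 to 0.0094, adjusted p = 0.33 in limma, n = 3 each), which was not called. An exact two-sided permutation test gave p = 0.1, the smallest that 3 libraries against 3 allow. The adjusted p ran from 0.041 with limma's library weights to 0.59 without BF replicate 3. In GF vs WF the difference was −0.34 (95% CI −0.77 to 0.084, adjusted p = 0.51), and without GF replicate 1 it was −0.12.

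Counted together, all 3 genes were lower in BF than in WF without overlap in *P. qamdoensis*, and all 3 were lower in BF than in GF. RGL1 and SCL27 were higher in GF than in WF without overlap. Over all genes above the filter, 10% were lower in BF than in WF without overlap, 12.9% were lower in BF than in GF and 7.43% were higher in GF than in WF. Nothing is read from these counts, because the genes were chosen on the same libraries. The comparisons also share libraries of each film.

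In *P. schneideri* limma called 0 of the 3 genes in each film comparison, and 0 had an unadjusted p under 0.05. The same fit called 0.0252% of 23821 genes in BF vs WF, 0.042% in GF vs WF and 0% in BF vs GF. In the same order, 15.6%, 12.1% and 6.49% of genes had an unadjusted p under 0.05. limma's F test over the films, which called 0.0294% of all genes, gave adjusted p-values of 0.84 for RGL1, 0.50 for SCL27 and 0.48 for NLP9. The 1 gene of 3 whose libraries did not overlap, NLP9 in BF vs WF, stands beside 17.2% of all genes that were lower in BF than in WF without overlap.

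Set side by side for BF vs GF, the differences were −0.97 for RGL1, −0.87 for SCL27 and −1.01 for NLP9 in *P. qamdoensis*, or −0.85, −0.63 and −0.78 without BF replicate 1. In *P. schneideri* they were −0.12, −0.37 and −0.075, with 95% intervals of −0.58 to 0.34, −0.75 to 0.018 and −0.50 to 0.35. All values were below 0 in both species, and those of *P. qamdoensis* were closer to those of *P. schneideri* without BF replicate 1. The difference between the species in film response was not tested, since the genes were selected for their response in one of them. A value selected for its size tends to lie farther from 0 than a repeat of it.

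**Figure D2:**
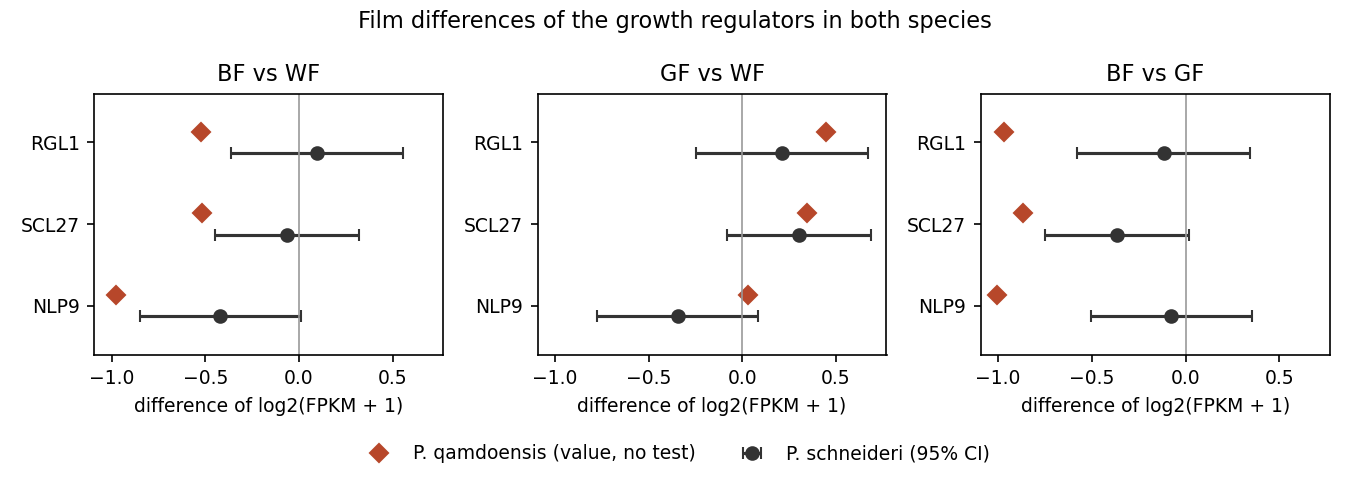
Differences of log2(FPKM + 1) between films for RGL1, SCL27 and NLP9, first film minus second. Diamonds are values of *P. qamdoensis*, on which the genes were chosen, and circles are *P. schneideri* with 95% confidence intervals from limma. Each interval includes 0. The diamonds of the comparisons that include BF rest in part on BF replicate 1, without which SCL27 was −0.28 and NLP9 −0.74 in BF vs WF.

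Averaged over the films, 1 of the 3 genes, SCL27, had an unadjusted p under 0.05 between the species, as did 40.3% of all genes tested. SCL27 averaged 7.20 ± 2.17 FPKM in *P. qamdoensis* and 5.27 ± 1.16 FPKM in *P. schneideri* (SD over the 9 libraries of all films). The difference was 0.35 (standard error 0.109, 95% CI 0.12 to 0.59, adjusted p = 0.023 in limma), which was not called, and an exact two-sided permutation of species within films gave p = 0.0105. Leaving out single libraries, the adjusted p ran from 0.0012 without BF replicate 1 of *P. qamdoensis* to 0.046 without BF replicate 3 of *P. schneideri*. It was 0.0080 with library weights, and within single films it ran from 0.096 under GF to 0.92 under BF. The difference stayed below 1.5-fold in each of these fits. Under GF and WF the libraries of the species did not overlap, with differences of 0.54 and 0.49, whereas under BF they overlapped, with a difference of 0.036. RGL1 differed by 0.091 (95% CI −0.15 to 0.34, adjusted p = 0.60; exact permutation p = 0.521) and NLP9 by 0.011 (95% CI −0.27 to 0.29, adjusted p = 0.96; exact permutation p = 0.945).

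The means over films hide differences that go opposite ways. Under BF, RGL1 was lower in *P. qamdoensis* than in *P. schneideri* without overlap, at 0.184 and 0.553 FPKM. Under WF it was higher without overlap, at 0.698 and 0.453 FPKM. The margin under WF was narrow for this low gene. The lowest WF library of *P. qamdoensis* had 0.505 FPKM and the highest of *P. schneideri* 0.496 FPKM. NLP9 under GF was higher in *P. qamdoensis* without overlap, at 6.80 ± 0.573 and 4.85 ± 1.47 FPKM (SD, n = 3 each). Over all genes above the filter, 14.2% were lower in *P. qamdoensis* without overlap under BF, 16.6% were higher under GF and 15.4% were higher under WF. These film-wise values carry the film response for which the genes were chosen and were given no test of their own. limma called 11.1% of 24273 genes between the species and 0 of these 3. Reads of both poplars were aligned to the genome of *P. yunnanensis*, so a difference in expression and a difference in how well the reads of a species match that genome cannot be told apart.

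The ratio of NLP9 to SCL27 within a library does not depend on scaling between libraries. It was 0.577, 0.491 and 0.766 in BF, 0.757, 0.610 and 0.799 in GF and 0.765, 1.19 and 0.843 in WF of *P. qamdoensis*. In *P. schneideri* it was 0.713, 1.30 and 0.965 in BF, 0.429, 0.810 and 1.24 in GF and 1.39, 1.23 and 1.25 in WF. NLP9 thus exceeded SCL27 in all WF libraries of *P. schneideri* and in 1 WF library of *P. qamdoensis*. The ratio was chosen after the values were seen and was not tested.

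Library by library, NLP9 tended to be low where genes of the photosynthetic antenna were high, in both species. Antenna proteins bind the chlorophyll that collects light. The summed FPKM of the 3 antenna protein genes and protochlorophyllide reductase was 969, 914 and 456 in BF, 383, 453 and 340 in GF and 419, 297 and 387 in WF of *P. qamdoensis*. In *P. schneideri* it was 684, 493 and 616 in BF, 859, 346 and 301 in GF and 361, 445 and 496 in WF. The library with the lowest NLP9 value of each species, BF replicate 1 of *P. qamdoensis* and GF replicate 1 of *P. schneideri*, had the highest sum. Over the 9 libraries of *P. qamdoensis*, Pearson's r of NLP9 was −0.93 with the antenna protein gene Pyun01G038890, −0.96 with Pyun02G020650, −0.93 with Pyun16G011210 and −0.88 with protochlorophyllide reductase. Over those of *P. schneideri* the values were −0.87, −0.92, −0.67 and −0.36 in the same order of genes. The leaf genes were taken from the study's tables of genes called between films in *P. qamdoensis*, as were the growth regulators. The correlations in that species therefore follow in part from the choice of genes. The part of the films in this relation was not tested and the libraries are few, so it is given as a description.

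SCL27 did not keep 1 direction with these genes. Its r was −0.76, −0.71, −0.68 and −0.71 in *P. qamdoensis*, again in that order of genes, and 0.31, 0.25, 0.22 and 0.12 in *P. schneideri*. Within GF of *P. schneideri*, replicates 1, 2 and 3 had antenna and reductase sums of 859, 346 and 301. SCL27 was there 7.41, 6.71 and 4.78 FPKM, while NLP9 was 3.18, 5.44 and 5.93 FPKM and RGL1 was 0.364, 0.465 and 1.39 FPKM. In the same order of leaf genes, r of RGL1 was −0.64, −0.68, −0.61 and −0.74 in *P. qamdoensis*. In *P. schneideri* it was −0.49, −0.37, −0.64 and −0.74, but Spearman's rho was only −0.35 to −0.23. By r, RGL1 and NLP9 thus ran against the leaf genes in both species, and SCL27 only in *P. qamdoensis*. By rank this was weaker for SCL27 in *P. qamdoensis*, with a Spearman's rho of −0.32, −0.52, −0.27 and −0.53. For RGL1 rho was −0.35, −0.58, −0.27 and −0.67 there. BF replicate 1, the library that stood apart, had the highest sum and the lowest SCL27 and RGL1 values of *P. qamdoensis*. The part of the leaf genes in the film differences was not tested. In bulk leaf tissue, fewer cells of a type and less RNA per cell cannot be told apart.

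**Figure D3:**
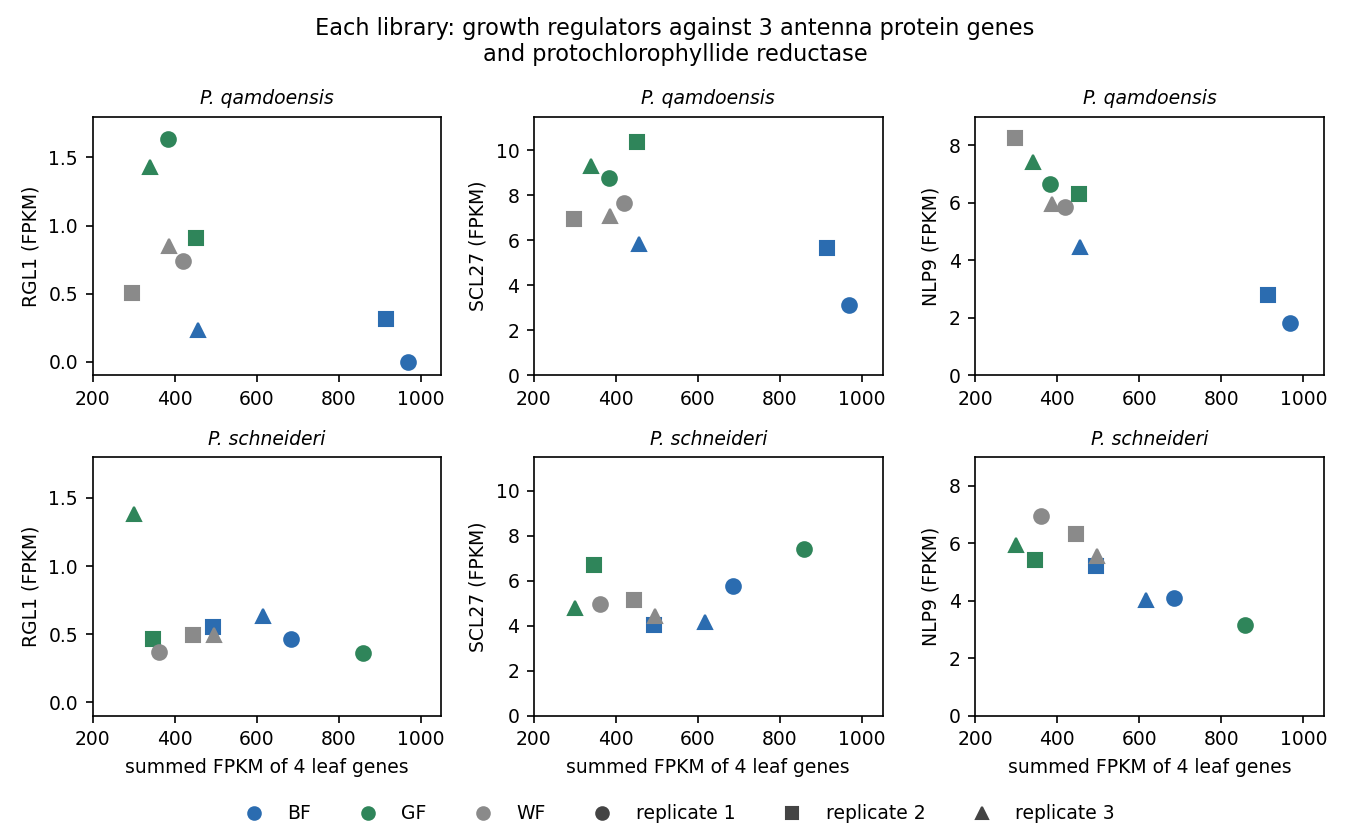
FPKM of RGL1, SCL27 and NLP9 in each library against the summed FPKM of 3 antenna protein genes and protochlorophyllide reductase, with *P. qamdoensis* in the upper and *P. schneideri* in the lower row. Colors mark the film and shapes the replicate. NLP9 falls along the axis in both rows, and SCL27 only in the upper row, where its relation was weaker by rank than by r. RGL1 had r below 0 with each of these leaf genes in both species, and was likewise weaker by rank.

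The 3 genes varied together in *P. qamdoensis* and not in *P. schneideri*. Over the 9 libraries of *P. qamdoensis*, Pearson's r of log2(FPKM + 1) was 0.88 between RGL1 and SCL27, 0.77 between RGL1 and NLP9 and 0.86 between SCL27 and NLP9. Over those of *P. schneideri* the values were −0.37, 0.21 and −0.40. These values are descriptions, and those of *P. qamdoensis* follow in part from the choice of genes with film differences.

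The genes most like each of the 3 were sought among 22915 genes by r over the 18 libraries after the mean of each species was subtracted. For NLP9 the highest were Pyun15G006280 (r = 0.97), Pyun07G015560 (r = 0.96) and Pyun06G015930 (r = 0.96). For RGL1 they were Pyun15G003960 (r = 0.91), Pyun08G010510 (r = 0.90) and Pyun06G004600 (r = 0.90), and for SCL27 they were Pyun14G014300, Pyun13G005970 and Pyun01G013410 (r = 0.87 each). None of the 9 has a name in the sources used here. For RGL1 the likeness in *P. schneideri* rested on few libraries, since Pyun15G003960 had an r of 0.90 but a Spearman's rho of 0.38 there. Its values were 24.7, 25.5 and 23.3 FPKM in BF, 18.9, 27.1 and 43.7 FPKM in GF and 23.4, 22.0 and 21.7 FPKM in WF. GF replicate 3 was thus the highest library for this gene too. Neither RGL1 nor SCL27 was near the top of the other's order, at place 2287 of RGL1 in the order for SCL27 and place 1926 of SCL27 in that for RGL1.

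Among the 6 light signaling genes, r with NLP9 was above 0 in both species for each, but its size varied. HY5, a transcription factor that promotes light responses, had an r with NLP9 of 0.94 in *P. qamdoensis* and 0.83 in *P. schneideri*. For CRY1, a blue light receptor, r was 0.91 and 0.81 in the same order of species. The lowest were COP1 with 0.52 and 0.80, PHYB with 0.52 and 0.67, and PIF4 with 0.88 and 0.24. COP1 and PHYB stood at places 5189 and 5813 of 22915 genes by their likeness to NLP9, so values of this size were common. In that order an r of −0.044 stood at place 14047, so an r above 0 was common too. The share of all genes above 0 in both species was not computed, and nothing is read from the count of 6. Spearman's rho in *P. qamdoensis* was 0.73 for HY5, 0.80 for CRY1, 0.67 for COP1, 0.40 for HYH, 0.45 for PHYB and 0.77 for PIF4. In the gibberellin list the receptor gene GID1C had 0.95 and 0.77, and GID1b had 0.68 and 0.33. The genes named carboxylesterase 18 ran the other way in both species. They had −0.93 and −0.78 (Pyun19G002820) and −0.89 and −0.83 (Pyun19G002920). The PIF3 gene Pyun14G009100 changed sign, with 0.36 and −0.57, as did Pyun16G002410, with 0.72 and −0.090. The other PIF3 gene, Pyun14G008760, had −0.15 and −0.66.

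The nitrogen metabolism genes as a list ran opposite to NLP9 in *P. qamdoensis*. The study chose both the list and NLP9 on the libraries of that species. The opposite course there follows in part from this choice, and nothing is read from it. Of the 8 genes, 7 had a higher mean log2 value in BF than in WF there and 1 a lower one, with a median difference of 0.66, and the 7 had r with NLP9 from −0.93 to −0.40. In *P. schneideri* the r of those 7 ran from −0.77 to 0.83. The exception was Pyun09G010430, whose r with NLP9 was 0.92 in *P. qamdoensis* and 0.90 in *P. schneideri*. It had 0.0799, 2.16 and 2.37 FPKM in BF, 6.45, 4.42 and 5.59 FPKM in GF and 7.16, 8.59 and 8.88 FPKM in WF of *P. qamdoensis*. In *P. schneideri* it had 1.87, 1.37 and 1.16 FPKM in BF, 0.559, 2.61 and 3.71 FPKM in GF and 3.98, 2.70 and 3.03 FPKM in WF. For this gene alone of the 8, BF was below WF without overlap in *P. qamdoensis*. BF was also below WF without overlap in *P. schneideri*. The difference there was −0.78 (95% CI −1.52 to −0.035, adjusted p = 0.30 in limma), which was not called. It was not alone in this, since 3 of the 8 genes were lower there without overlap, beside 17.2% of all genes. Pyun16G007350 differed by −1.11 and Pyun19G005240 by −0.75 in BF vs WF of *P. schneideri*.

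The lists of related pathways were selected by the study on the *P. qamdoensis* libraries and are counted here in *P. schneideri*. Of the 7 gibberellin pathway genes other than these 3, all were tested and limma called 0 in each film comparison. The median difference was 0.45 in BF vs WF and 0.098 in GF vs WF, against medians of −0.044 and −0.069 over all genes tested. At an unadjusted p under 0.05, 2 of the 7 were higher in each of these comparisons, as were 5.32% of all genes in BF vs WF and 3.11% in GF vs WF. The highest 2 were genes named PIF3, a transcription factor that DELLA proteins bind. Pyun14G009100 had 17.1, 11.8 and 10.6 FPKM in BF, 11.4, 10.5 and 13.7 FPKM in GF and 5.73, 5.31 and 4.76 FPKM in WF. All BF and GF libraries were above all WF libraries, with differences of 1.15 in BF vs WF and 1.03 in GF vs WF (adjusted p = 0.042 each in limma). Pyun14G008760 had differences of 1.08 and 1.01 (adjusted p = 0.040 and 0.032), likewise without overlap. Both missed the threshold of 0.01, and reads of similar copies may have been shared between these genes.

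Between the species limma called 1 of the 7, the gibberellin receptor gene GID1b, beside 11.1% of all genes tested. It averaged 8.81 ± 5.43 FPKM in *P. qamdoensis* and 2.25 ± 1.72 FPKM in *P. schneideri* (SD over 9 libraries each), a difference of 1.52 (95% CI 0.87 to 2.17, adjusted p = 0.0014). The libraries of the species overlapped, since BF replicate 2 of *P. qamdoensis* had 1.87 FPKM and BF replicate 2 of *P. schneideri* had 6.17 FPKM.

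limma called 0 of the 6 light signaling genes, 0 of the 6 porphyrin and chlorophyll genes and 0 of the 8 nitrogen metabolism genes between films in *P. schneideri*. At an unadjusted p under 0.05, 1 of the 6 light signaling genes (HYH) and 3 of the 8 nitrogen metabolism genes were lower in BF than in WF, as were 10.3% of all genes. HYH and 2 nitrogen metabolism genes were lower in GF than in WF, beside 8.95% of all genes, and 1 nitrogen metabolism gene was higher in BF than in GF, beside 4.25%. None of the porphyrin and chlorophyll genes passed this threshold. A count of 1 is the smallest above 0 that lists of this size can give, so nothing is read from it. The counts of 3 and 2 of the 8 nitrogen metabolism genes were not tested as a set. Protochlorophyllide reductase, the enzyme limited by SCL27 in Arabidopsis, had 24.8, 20.5 and 26.0 FPKM in BF, 42.1, 14.4 and 8.24 FPKM in GF and 23.0, 33.8 and 41.1 FPKM in WF of *P. schneideri*. The r of SCL27 with this gene, given above, was below 0 in *P. qamdoensis* and near 0 in *P. schneideri*.

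**Figure D4:**
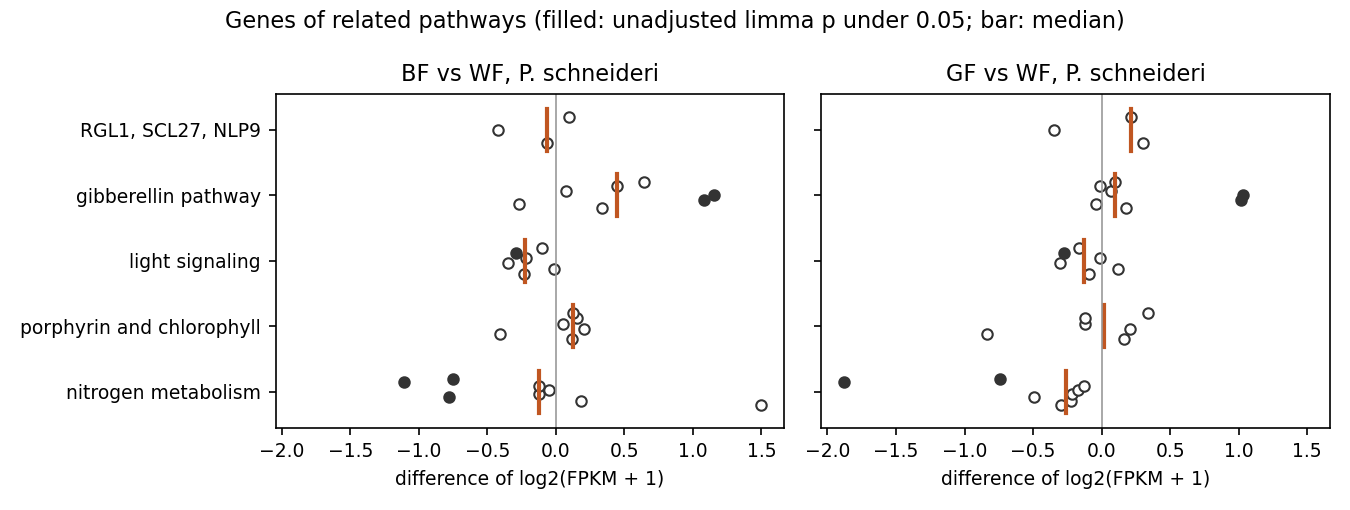
Differences of log2(FPKM + 1) in *P. schneideri* for RGL1, SCL27 and NLP9 and for the genes of 4 related lists, in BF vs WF and GF vs WF. Each circle is a gene, filled where the unadjusted limma p is under 0.05, and the bar is the median of the list. The 2 filled circles of the gibberellin pathway are the PIF3 genes, and none of the 3 growth regulators is filled.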

How the data were processed

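The authors filtered Illumina reads of leaf libraries and aligned them to the *P. yunnanensis* genome. Per the labels, HISAT2 and StringTie were used, without versions or settings. The deposited values are FPKM, and all columns were matched to a sample by its label. FPKM hold no fragment counts, so depth per gene is unknown.

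FPKM were used as deposited, as log2(FPKM + 1). Genes whose mean in the fitted libraries reached 0.5 FPKM were kept. Models were fitted across all genes with limma 3.58.1 (R 4.3.3), giving each film of a species its own mean and eBayes an intensity trend. The fits were also run on data simulated with normal noise of the fitted spread. No simulated library stood apart, so that run cannot show how the fits handle such a library. The study's thresholds were used, since its methods name no test. Exact tests and correlations came from numpy 2.4.6, scipy 1.17.1 and pandas 2.3.3 in Python 3.11.15, and plots from matplotlib 3.10.9. The named genes are the 3 members, the pathway lists of the study's tables and the 3 genes most like each member. Members and lists were chosen with earlier results of these data known. Alternatives were another pseudocount, other filters and scalings, library weights, no trend, a replicate block, fewer libraries, single films and a looser threshold.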

Additional observations from a re-analysis of the deposited data

How the results depend on the processing

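For RGL1, SCL27 and NLP9, 457 values were computed under the alternatives. Of these, 435 kept their direction and their side of the threshold, or moved by less than the spread between replicates where there was no test, 3 moved and 19 changed sign. limma called none of the 3 genes under any alternative. The cause of the changes was not tested.

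With a pseudocount of 0.1, RGL1 in *P. qamdoensis* differed by −1.71 in BF vs WF, 0.83 in GF vs WF and −2.53 in BF vs GF, NLP9 between the species by −0.0060, and the F test called 13 genes. With library weights NLP9 differed between the species by −0.012 and SCL27 in BF vs WF of *P. schneideri* by 0.032, and after quantile normalization that SCL27 value was 0.012. Under BF alone, RGL1 and NLP9 differed between the species by −0.40 and −0.48. Leaving out single libraries, NLP9 between the species ran from −0.072 to 0.088, NLP9 in GF vs WF of *P. qamdoensis* from −0.044 to 0.17, NLP9 in BF vs GF of *P. schneideri* from −0.30 to 0.064, and SCL27 in BF vs WF of *P. schneideri* from −0.20 to 0.014.

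The counts over all genes in *P. schneideri*, 6 in BF vs WF, 10 in GF vs WF, 0 in BF vs GF and 7 in the F test, depended on the setting. They were 304, 98, 14 and 253 with library weights, and 38, 81, 12 and 75 at an adjusted p below 0.05 without a fold threshold. Without a filter GF vs WF gave 2 and BF vs GF 1, and at a mean of at least 5 FPKM GF vs WF gave 6. Median-ratio scaling gave 6 in GF vs WF and 4 in the F test, and quantile normalization and eBayes without a trend gave 4 in the F test. A fit of the 6 libraries compared gave 114 in BF vs WF. Leaving out GF replicates 1 and 3, chosen after seeing the data, gave 117 in BF vs WF, 0 in GF vs WF and 50 in the F test. Leaving out 1 library gave 1 to 48, 1 to 13, 0 to 1 and 1 to 24, with the 48 reached without GF replicate 1. Between the species, 2696 genes were called, against 1216 at a mean of at least 5 FPKM, 1339, 1138 and 1425 under BF, GF and WF alone, 7286 at the looser threshold and 2443 to 3104 without 1 library.

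Replicate numbers did not pair the libraries, since deviations of same-numbered libraries correlated at −0.483 to 0.23. With a replicate block the counts were 6, 7, 0, 6 and 2438, the adjusted p of SCL27 between the species was 0.0257, and no call of the 3 genes changed. Depth is unknown, so what it limits could not be given.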
